A study of Mus musculus with 2 samples.

Results

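The expression of 9 apolipoprotein genes, Apoa1, Apoa2, Apob, Apoc1, Apoc3, Apod, Apoe, Apoh and Apom, was examined in epididymal white adipose tissue, a visceral fat depot of the lower abdomen. They were found as every probe set with a single annotated gene symbol among these 9, which gave 16 of the 45037 probe sets on the array. The members were thus 9 of 18193 named genes. All samples were from male C57BL/6 mice, and the change of diet was started at 9 weeks of age. One group was a mouse given a high-fat diet over 7 weeks (HFD), and the other was a mouse on normal chow, for which the labels give no duration. Total RNA was hybridised to an Affymetrix mouse array, with 1 array per diet, so there was no replicate and no test of the diet was possible. Every difference below describes these 2 arrays only, is given as HFD minus chow on the log2 scale, and could not be set against the spread between animals.

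Apolipoproteins are the protein coat of lipoproteins, the particles that carry cholesterol and triglyceride in blood. They hold the particle together, activate or inhibit the enzymes that act on it, and bind the receptors that clear it. Apoa1 and Apoa2 encode the main proteins of high-density lipoprotein (HDL), Apob the scaffold of chylomicrons and low-density lipoprotein, and Apoc1, Apoc3 and Apoe exchangeable proteins that move between particles. Apod and Apom encode lipocalins, which are small carriers of lipid, and Apoh encodes beta-2 glycoprotein I, a phospholipid-binding plasma protein. Liver and intestine make most plasma apolipoproteins, but fat cells and macrophages are known sources of Apoe, and Apod is made in many tissues outside the liver.

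The members divided by brightness. Apoe and Apoc1 were among the brightest probe sets of both arrays and differed little between the diets. Apod was of middle brightness and level in its brighter probe set. Apoa2 and Apoh were of middle brightness on the chow array and dim on the HFD array, and Apoa1, Apob and Apoc3 were dim on both. These 5 genes were lower on HFD in the probe set used for the gene, from 1.40-fold for Apoc3 to at least 7.68-fold for Apoa2. Apom was not above background on either array. In bulk tissue, fewer cells of a type and less RNA per cell cannot be told apart.

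The 250 bases before the annotated start are shown for the 3 genes that were 2-fold or more lower and, for contrast, for the bright and nearly level Apoe. The sequences are from RefSeq, build GRCm38.p6, at chr9:46228380-46228629 (plus strand) for Apoa1, chr1:171221314-171221563 (plus) for Apoa2, chr11:108395047-108395296 (plus) for Apoh and chr7:19699189-19699438 (minus) for Apoe. Where the table held several starts, the most upstream was taken. Capitals mark matches on either strand to 7 motifs.
Apoa1: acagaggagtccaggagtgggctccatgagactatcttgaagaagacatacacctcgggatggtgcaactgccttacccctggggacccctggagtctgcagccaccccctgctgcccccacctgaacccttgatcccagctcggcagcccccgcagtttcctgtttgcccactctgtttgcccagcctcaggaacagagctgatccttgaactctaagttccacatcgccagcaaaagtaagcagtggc
Apoa2: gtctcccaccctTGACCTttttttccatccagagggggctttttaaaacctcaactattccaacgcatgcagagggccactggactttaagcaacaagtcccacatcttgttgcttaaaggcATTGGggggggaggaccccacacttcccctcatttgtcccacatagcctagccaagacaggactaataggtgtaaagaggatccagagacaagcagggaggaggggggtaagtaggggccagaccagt
Apoh: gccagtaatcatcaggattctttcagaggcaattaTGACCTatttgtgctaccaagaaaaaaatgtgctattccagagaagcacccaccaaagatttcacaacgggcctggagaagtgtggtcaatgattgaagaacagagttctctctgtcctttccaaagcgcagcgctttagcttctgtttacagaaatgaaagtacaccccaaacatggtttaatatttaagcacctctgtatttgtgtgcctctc
Apoe: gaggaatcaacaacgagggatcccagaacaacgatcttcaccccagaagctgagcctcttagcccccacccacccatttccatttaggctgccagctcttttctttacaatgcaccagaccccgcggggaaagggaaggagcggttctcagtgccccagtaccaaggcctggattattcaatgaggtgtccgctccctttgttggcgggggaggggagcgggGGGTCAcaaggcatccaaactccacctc

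The motifs searched were TATAAA of the TATA box, CCAAT of the CCAAT box, GGGCGG of the GC box, AGGTCA with its variant form GGGTCA (the core site of nuclear receptors), GTTAAT from the HNF1 site and CAAAGTNCA from the HNF4 site. They were present in 12.4%, 33.8%, 32.7%, 14.0%, 11.6%, 6.43% and 1.19% of 32851 upstream windows of the same length, in that order. Overlaps between motifs were allowed. Apoa2 had AGGTCA on the opposite strand, 233 to 238 bases before the start, and CCAAT on the opposite strand at 124 to 128 bases. Apoh had AGGTCA on the opposite strand at 210 to 215 bases. Apoe had GGGTCA on the same strand at 23 to 28 bases, and the Apoa1 window held none of these letters. No motif of this set was present in all 3 genes that were 2-fold or more lower on HFD, and a match or its absence is a description of letters only. Of the 9 members, 7 were in the promoter table, and Apoc1 and Apoc3 were not.

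An intensity near the bottom of the range can be nonspecific signal, so distance to background was measured in 3 ways. The first was the floor, the 40th percentile of all probe sets, which was an intensity of 27.9 on the HFD array and 28.6 on the chow array. Probe sets that reached the floor on either array or both were called measured, and lower values were raised to the floor before log2 was taken. The second was a set of 78 probe sets of olfactory and vomeronasal receptor genes, which belong to sensory neurons of the nose and served as a gauge of signal without a transcript. Their 90th percentile, called the receptor limit here, was 53.6 on the HFD array and 50.1 on the chow array. The third was the percentile among all probe sets. The floor was lenient, since 34.6% of the receptor probe sets on the HFD array and 42.3% on the chow array lay at or above it.

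Of the 16 apolipoprotein probe sets, 8 passed the floor on HFD and on chow, 5 on chow only and 3 on neither. No apolipoprotein probe set was above it on HFD only. Of the 5 on chow only, 3 read Apoa1, so they are not 5 separate genes. Of all 29356 measured probe sets, 24727 were above the floor on both arrays. Over all 14066 measured genes, 762 were above it on chow only. The split was not tested. The 13 measured probe sets covered 8 of the 9 genes.

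**Figure D1:**
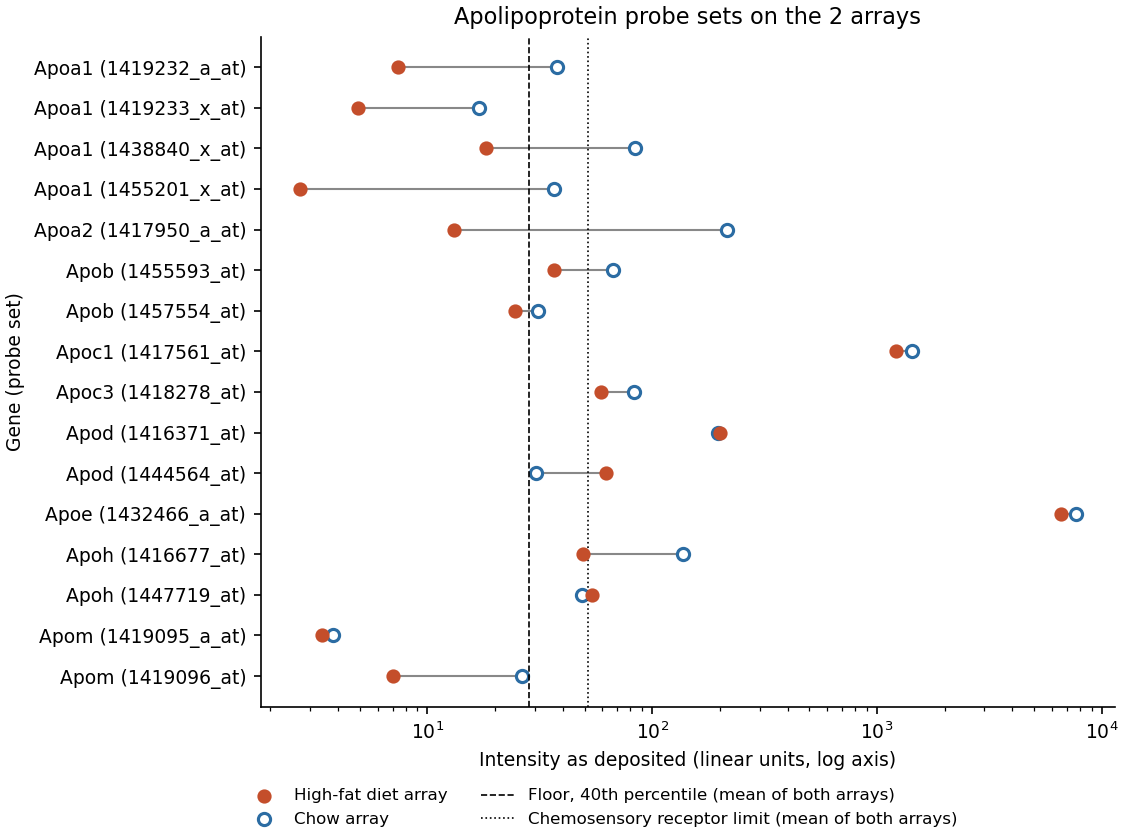
Intensity of each of the 16 apolipoprotein probe sets (rows) on the HFD array (filled) and the chow array (open), on a log axis. Dashed and dotted lines give the floor and the receptor limit, each averaged over both arrays. Apoe and Apoc1 lie far to the right of both lines, while the HFD points of all 4 Apoa1 probe sets, of Apoa2 and of both Apom probe sets lie left of the floor.

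Of the HDL proteins, Apoa2 had the largest difference among the members. Its only probe set had an intensity of 13.1 on HFD, which was 0.470 of the floor, against 214.2 on chow, which was 7.49 times the floor and 4.28 times the receptor limit. The chow value lay above all 78 receptor probe sets and the HFD value above 32 of them. Apoa2 was thus clear of background on the chow array and inside it on the HFD array. The difference was a bound of -2.94, or at least 7.68-fold lower. Of the 762 genes above the floor on chow only, which can only be lower, 70 (9.19%) were 2-fold or more lower, and 2 of them, Apoa2 included, were lower by as much as Apoa2. The bound was 2-fold or more in all 9 settings that gave a value, and was at its smallest, -1.87, with the floor at the 60th percentile. The probe set is of the type that reads several transcripts of the gene, and Apoa2 gave no value when only plain probe sets were used.

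Apoa1, whose protein accepts cholesterol from cells and activates the enzyme that esterifies it, was read by 4 probe sets. The brightest had 18.3 on HFD against 83.5 on chow, and the others had 7.4 against 37.8, 4.9 against 17, and 2.7 against 36.6. All 4 were under the floor on HFD, and 3 of the 4 were above it on chow, where only the brightest passed the receptor limit, by 1.67 times. The HFD values thus lay inside background in every Apoa1 probe set, and the order of values under the floor carries no information. The brightest gave a bound of -1.58, at least 2.99-fold lower, and the other 2 measured ones gave bounds of -0.44 and -0.39. Of the 4, 3 are of the type whose probes can also match other sequences, and since all read 1 gene in the same RNA they are not independent readings. The bound was under 2-fold with the floor at the 60th percentile (-0.51), with the receptor limit as the floor (-0.64), with the mean of the probe sets (-0.80) and with whichever Apoa1 probe set differed least (-0.39).

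Apoc3, which encodes an inhibitor of lipoprotein lipase and of particle clearance, had 59.4 on HFD against 83.3 on chow. Both values passed the receptor limit, by 1.11 times on HFD and 1.66 times on chow. The difference of -0.49, or 1.40-fold lower, was under 2-fold and 1.54 times the probe error pooled over all levels, described below. Among genes from 50 to 100, where Apoc3 lay, that error was larger, at 0.37. Apob had 36.4 on HFD against 66.8 on chow in its brighter probe set, and 24.5 against 31 in the other. The brighter one differed by -0.88, or 1.84-fold lower, and was above the receptor limit on chow only. The other, above the floor on chow only, gave a bound of -0.15. The Apob difference did not reach 2-fold in any of 10 settings and ranged from -0.93 to -0.15.

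Apoh was the third gene past 2-fold. Its brighter probe set had 49.2 on HFD against 137.4 on chow, a difference of -1.48 or 2.79-fold lower. The chow value was above all 78 receptor probe sets and the HFD value above 67 of them. The other Apoh probe set had 54 on HFD against 48.5 on chow, a difference of 0.15 in the opposite direction. These 2 probe sets stood 1.64 log2 units apart, and of the 5196 genes whose arrays both measured several probe sets, 36 (0.693%) had a range as wide, against a median range of 0.35. The direction of Apoh therefore depends on the probe set, and the mean of both gave -0.66.

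Apoe and Apoc1 were bright on both arrays. Apoe, the ligand through which remnant particles bind receptors of the low-density lipoprotein receptor family, had 6568.4 on HFD against 7682.5 on chow, 235 times and 269 times the floor. These values were above 99.92% of all probe sets on HFD and 99.96% on chow. The difference was -0.23, or 1.17-fold lower. Apoc1, which encodes a small protein that hinders uptake of particles, had 1211.5 on HFD against 1432.2 on chow, at the 97.9th and 98.5th percentile, and differed by -0.24, or 1.18-fold lower. The differences of Apoe and Apoc1 were 0.713 and 0.761 times the probe error pooled over all levels, but larger than the error of 0.20 among genes above an intensity of 400, and they stayed between -0.34 and -0.23 in every setting that gave a value. Each gene had a single probe set, and saturation of the bright Apoe signal was not tested. Brightness depends on the probes as well as on the transcript, so it does not order the genes by transcript level.

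Apod, a lipocalin that binds small lipids such as arachidonic acid, had 199.1 on HFD against 195.7 on chow in its brighter probe set, a difference of 0.02. The other had 62.5 on HFD against 30.5 on chow, just above the chow floor, and was 2.05-fold higher with a difference of 1.04. The 2 Apod probe sets stood 1.01 apart, a range reached by 6.35% of the 5196 genes. The brighter one was level and the weaker one was the only apolipoprotein probe set at 2-fold or more higher. Apom, which encodes the carrier of sphingosine-1-phosphate on HDL, had 7 on HFD against 26.4 on chow and 3.4 against 3.8 in its 2 probe sets, all under the floor, and no fold change is given. With the floor at the 20th percentile the brighter of them gave a bound of -1.44.

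Counted over genes, 3 of the 8 measured apolipoproteins were 2-fold or more lower on HFD and 0 were 2-fold or more higher. Over all 14066 measured genes, 1.33% were 2-fold or more lower (187 genes) and 1.16% higher (163 genes). With differences centred on reference genes these counts were 241 lower and 131 higher, and the apolipoprotein counts were again 3 and 0. The median difference was -0.68 over the 8 measured apolipoproteins and -0.02 over all measured genes. Apoa1 and Apoa2 counted as measured only through the chow array and could not have been higher on HFD, so neither the count nor the median is support for a lower level of the group. Among the 6 genes above the floor on both arrays the median was -0.36, 5 were lower, and only Apoh was past 2-fold. Of all 12496 such genes, 52.9% were lower and 0.936% were 2-fold or more lower. Counted over probe sets, 3 of 13 were 2-fold or more lower and 1 was higher, where 1.36% and 1.26% of all 29356 measured probe sets were.

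Weak genes were 2-fold or more lower more often than bright ones. Of all genes with a mean intensity under 50, where Apoa1 and Apob lay, 2.50% were 2-fold or more lower, and from 50 to 100, where Apoa2, Apoc3 and Apoh lay, 1.61% were. From 100 to 400, where Apod lay, 0.823% were, and above 400, where Apoe and Apoc1 lay, 0.349% were. The shares 2-fold or more higher also fell at first, with 1.51% under 50, 1.31% from 50 to 100 and 0.823% from 100 to 400. Above 400 the higher share was 1.25%, so it did not fall with level throughout. As a yardstick of probe error, the difference of single probe sets scattered around the mean of their gene with a pooled SD of 0.32 over the 5196 genes, 0.37 for genes between 50 and 100 and 0.20 above 400. This SD holds no difference between animals.

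**Figure D2:**
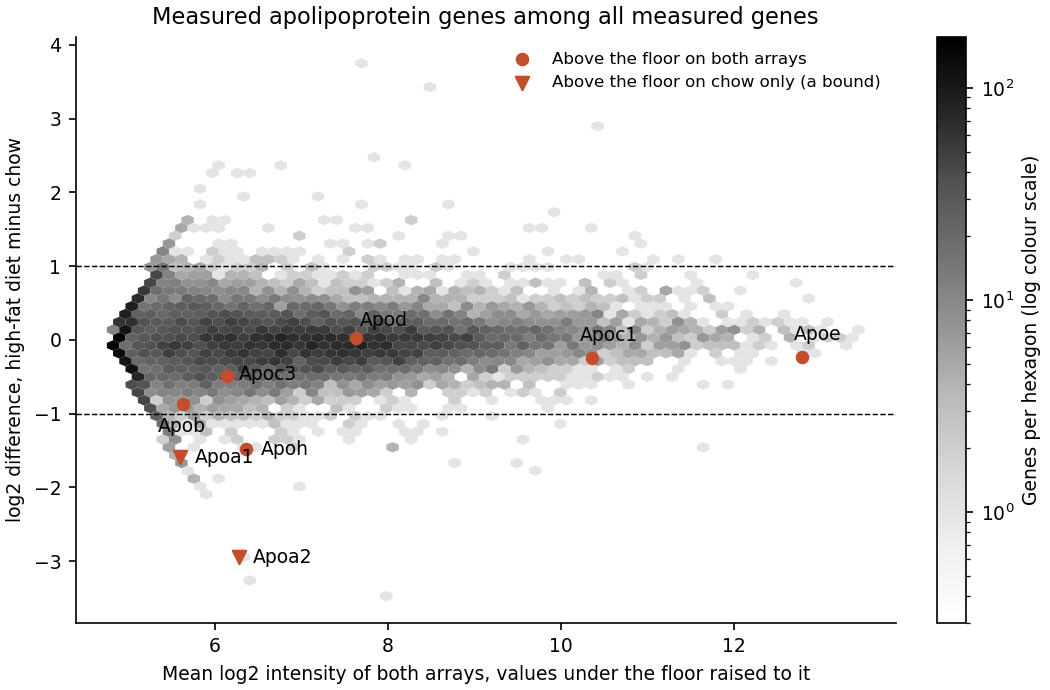
Difference between the arrays (vertical axis, log2, HFD minus chow) against mean log2 intensity (horizontal axis) for the 14066 measured genes, shaded by the number of genes per hexagon, with the 8 measured apolipoproteins marked. Triangles are bounds for genes above the floor on chow only, and dashed lines mark 2-fold. Apoa2 at -2.94 stands below nearly all genes, while Apoe, Apoc1 and Apod lie inside the main cloud.

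**Figure D3:**
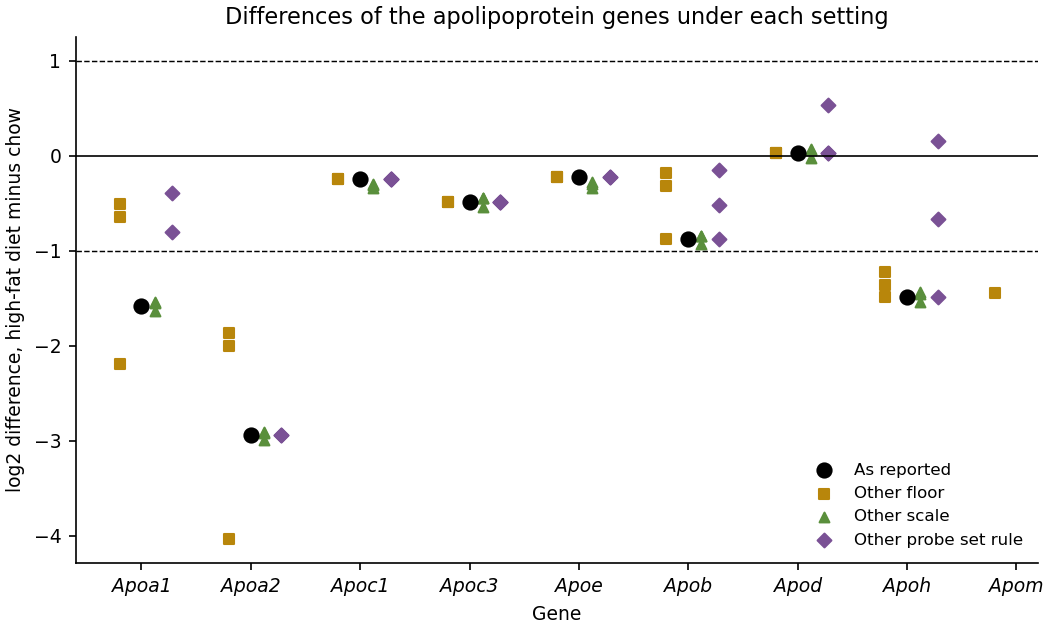
Difference of each apolipoprotein gene (log2, HFD minus chow) as reported and with other floors, scales and rules for the probe set, 1 point per setting. Apoa2 is below the dashed 2-fold line at -1 in every setting shown, Apoa1 crosses it with other floors and probe set rules, Apoh reaches 0.15 with its other probe set, and Apom has a value only with the floor at the 20th percentile.

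Several members are neighbours in the genome. Apoa1, Apoc3, Apoa4 and Apoa5 follow each other on chromosome 9, and Apoe, Apoc1, Apoc4 and Apoc2 lie together on chromosome 7, by the gene order of GRCm38.p6. In the chromosome 9 group, Apoa5, a known activator of plasma triglyceride breakdown, had 21.3 on HFD against 60 on chow, a bound of at least 2.15-fold lower, and Apoa4 was under the floor on both arrays. Apoa1 and Apoa5 were above the floor on chow only and could not have been higher, so of this group only Apoc3, at -0.49, was free to differ either way. Sik3, the next gene beyond Apoa1, differed by -0.26. In the chromosome 7 group, Apoc2, the activator of lipoprotein lipase, had 64.6 on HFD against 64 on chow, and Apoc4 was under the floor on both arrays. The 3 measured genes of that group, Apoe, Apoc1 and Apoc2, differed by -0.23, -0.24 and 0.01. Tomm40, the next gene beyond Apoe, differed by 0.13.

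The other apolipoproteins and relatives did not share a direction. Of 18 listed, 15 had probe sets and 8 were measured, with 5 higher, 3 lower and a median of 0.08. Apoa5 was the only one past 2-fold. Apol6, of the family that binds lipid inside cells, had 1035.5 on HFD against 750.9 on chow, and Clu, which encodes apolipoprotein J, had 569.3 against 597.3. Apoo and Apool, subunits of a mitochondrial inner membrane complex, differed by 0.14 and 0.16.

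Genes of lipoprotein assembly and editing were close to level. All 7 were measured and 0 were past 2-fold in either direction, with 5 higher, 2 lower and a median of 0.15. P4hb, which encodes a subunit of the triglyceride transfer protein complex, had 2574.1 on HFD against 2234.2 on chow, and Pdia3 had 1309.5 against 1177.5. Sar1b, which acts in the export of chylomicrons from the endoplasmic reticulum, differed by 0.15. Apobec1, the enzyme that edits the Apob transcript, had 151.1 against 133.2. Mttp, named after its values were seen because it loads lipid onto apolipoprotein B, had 49.1 on HFD against 48 on chow, under the receptor limit on both arrays.

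Among lipases and their regulators, 6 of 8 genes were measured, 5 were higher and 1 lower, with a median of 0.09. Angptl4, which encodes an inhibitor of lipoprotein lipase, was the only one past 2-fold, with 2467.9 on HFD against 1046.3 on chow, 2.36-fold higher. Lpl itself had 9417.9 against 9272.1 and Gpihbp1, its anchor on capillaries, 1391.1 against 1366.8. Angptl8 differed by 0.16 and Lmf1, needed to fold the lipase, by -0.47.

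Receptors that bind apolipoproteins had a median of 0.01, with 12 of 15 measured, 6 higher, 6 lower and 0 past 2-fold in the brightest probe set. Sdc1, named after its values were seen, differed by 0.10 in that probe set. Of its other measured probe sets, 1 was above the floor on chow only and gave a bound of -1.28, and 1 differed by -0.36. Cd36, a scavenger receptor for lipid and particles, had 7195.5 on HFD against 6130.1 on chow. Lrp1, a receptor for Apoe, had 1023.1 against 1230.4, and its chaperone Lrpap1 had 1795.1 against 1449.8. The second Lrp1 probe set, at 43.3 on HFD against 80.4 on chow, differed by -0.89. Sort1, a sorting receptor, differed by -0.08 in its brightest probe set and by -0.80 and -0.27 in the others. Vldlr, another receptor for Apoe, was named after its values were seen, since at 531 on HFD against 268.9 on chow (0.98) it lay just under 2-fold. Its 5 other probe sets differed by -0.10 to 0.84.

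Of 8 measured genes of HDL formation and remodelling, 7 were higher on HFD, 0 of them by 2-fold, and 1 was lower, with a median of 0.36. Over all measured genes 46.8% were higher. Lcat, among the 7, was above the floor on HFD only. Abca1, the transporter that loads cholesterol onto the Apoa1 protein, had 2371.8 on HFD against 2092.9 on chow, while its other probe sets differed by -0.15 and -0.06. Pltp, the phospholipid transfer protein, had 1902.4 against 1455.7 and differed by 0.53 in the second probe set, and Pcyox1 had 1226.4 against 875.3. Pon3 differed by 0.11. The lower gene was Pon1, an HDL-bound esterase known from liver, with 42.2 on HFD against 104.8 on chow, 2.48-fold lower in its only probe set. Its HFD value was above the floor but under the receptor limit of 53.6, so it lay near background.

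Transcription factors known to act on apolipoprotein genes had a median of -0.18, with 14 of 18 measured, 4 higher, 10 lower and 0 past 2-fold. This count takes the brightest probe set of each gene. Nr2f2, named after its values were seen, differed by -0.38 there, and its other measured probe sets ranged from -1.06 to 0.003. Cebpa had 3903.7 on HFD against 4672.8 on chow, Srebf1 1138.2 against 1608.5, Pparg 795.6 against 1115.6 and Cebpb 653 against 533.4. The other Cebpb probe set differed by -0.12. Hnf4a, which drives many liver apolipoprotein genes and was named after its values were seen, had 81.8 against 87.3. Of its other measured probe sets, 1 was above the floor on chow only and gave a bound of -0.99, and 1 differed by 0.11.

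**Figure D4:**
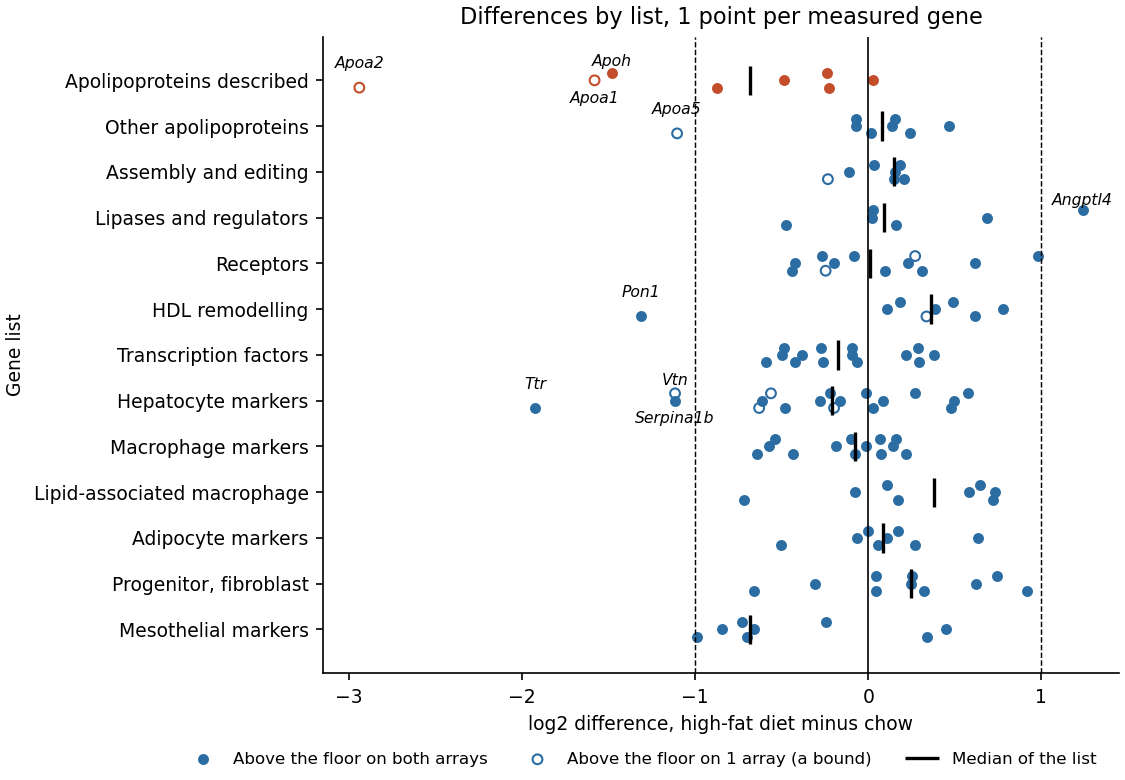
Difference of each measured gene (log2, HFD minus chow, horizontal axis) by list (rows), with the median of each list as a bar and genes past 2-fold named. Open points are bounds for genes above the floor on 1 array. The lowest point drawn is the Apoa2 bound, of a gene that could not have been higher. Among filled points the lowest is the hepatocyte marker Ttr at -1.93, below Apoh at -1.48. The hepatocyte markers past 2-fold are Ttr, near the floor on HFD, Vtn, and Serpina1b, a bound that could not have been higher. Adipocyte markers lie within 2-fold.

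Markers of cells and tissues that make apolipoproteins were read beside these results. Of 26 hepatocyte markers, 23 had probe sets and 18 were measured, 12 lower and 6 higher, with a median of -0.21, 3 past 2-fold lower and 0 higher. Of the 12 lower, 4 (Ahsg, Fga, Plg and Serpina1b) were above the floor on chow only and could not have been higher. The 14 above it on both arrays had 8 lower, 6 higher, 2 past 2-fold lower (Ttr and Vtn) and a median of -0.09. Ttr, the plasma carrier of thyroid hormone, had 28.6 on HFD against 108.7 on chow (3.80-fold lower). Its HFD value was just above the floor of 27.9 and under the receptor limit, so it lay near background. Its other measured probe sets, above the floor on chow only, gave bounds of -1.29 and -0.98. Serpina1b, an antitrypsin gene, had 4.3 on HFD against 60.5 on chow (at least 2.17-fold lower). Vtn, which encodes vitronectin, had 140.5 on HFD against 305.1 on chow (2.17-fold lower), with a bound of -1.28 in its other probe set. Alb, the gene of albumin, had 121.5 on HFD against 141.5 on chow, Cyp2c29 71.9 against 80.4, and Cyp3a11 122.9 against 88.3. Fgb, a fibrinogen chain, was near 0 at 1.1 on HFD and 3 on chow, and Fgg, Ambp, Itih1 and Itih3 were also under the floor on both arrays. The summed intensity of the measured markers was 4945.5 on HFD against 3999.1 on chow, of which Rbp4, also expressed by fat cells, held 4070.9 and 2731.6. Over the markers above the floor on both arrays, the sums were 4902.7 on HFD and 3822.2 on chow. Without Rbp4 they were 831.8 on HFD and 1090.6 on chow, and most of that difference came from Vtn and Ttr. Ttr and Vtn were thus lower while Alb was nearly level. Of the 6 higher markers, Rbp4, Cps1 and Cyp3a11 differed most, by 0.58, 0.49 and 0.48, and Cps1 was named after its values were seen. Apoa1 and Apoa2 could not have been higher, so no shared direction with these markers is read. The part of such cells in the apolipoprotein differences was not tested.

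Intestinal epithelium markers were mostly absent. Of 7 with probe sets, 5 were under the floor on both arrays, among them Fabp2 at 2.3 on HFD and 6.1 on chow, and Vil1 at 2.1 and 7.9. Lgals4 had 46.1 on HFD against 84.5 on chow and Alpi 83.1 against 91.3. Of 5 kidney markers, Umod and Slc22a6 were under the floor on both arrays, and Slc5a2 and Slc34a1 differed by -0.01 and -0.13. Kap had 209.1 on HFD against 196 on chow in 1 probe set. Its other probe set, at 3 on HFD and 3.6 on chow, was under the floor on both arrays. Of 6 epididymis markers with probe sets, Lcn5, Spint4 and Defb2 were under the floor on both arrays, and Rnase10, Lcn8 and Adam7 differed by -0.24, -0.74 and a bound of 0.43. The 10 measured reference genes, among them Actb at 8730.1 on HFD and 8160.6 on chow, had a median difference of 0.05.

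The labelled tissue matched its defining markers. Adipoq had 8718.4 on HFD against 8372.1 on chow and Fabp4 11559.7 against 10726.6, and the adipocyte list had a median of 0.08 with 6 of 8 genes higher and 0 past 2-fold. Retn and Cidec differed by -0.07 and 0.27. Macrophages, a source of Apoe and Apoc1, were read by 13 markers, 5 higher and 8 lower, with a median of -0.08, 0 past 2-fold and summed intensities of 10313.3 on HFD and 10476.5 on chow. Lyz2 differed by 0.16, Csf1r by 0.07, C1qa by 0.14 and C1qc by -0.19. Named after their values were seen, the largest differences of the list were all lower, at -0.64 for Cd14, -0.58 for Mertk, -0.54 for Cd163 and -0.44 for Mrc1. The list of lipid-associated macrophages, which take up lipid and are known to express Apoe, had a median of 0.38 with 6 of 8 higher, led in brightness by Ctsb at 6261.9 on HFD and 5550.1 on chow and Ctsd at 4070.6 and 2602.7. Lgals3 and Lipa differed by 0.72 and 0.11. Trem2, a receptor that defines these cells, was among the 2 lower genes, with 33.7 on HFD against 55.4 on chow (-0.72). It was under the receptor limit on HFD and just above it on chow, and its other probe set was under the floor on both arrays. Cd9, the other lower gene, differed by -0.07, while Itgax and Gpnmb differed by 0.73 and 0.58. These 4 genes were named after their values were seen. Most of the list was thus higher, and the part of these cells in the Apoe and Apoc1 values was not tested.

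Stromal and lining cells differed in sign. Of 10 measured progenitor and fibroblast markers, 8 were higher, with a median of 0.25, and Dcn, Col3a1, Dpt and Col1a1 differed by -0.31, 0.25, 0.62 and 0.74. Of 8 mesothelial markers, 6 were lower, with a median of -0.68, 0 past 2-fold and summed intensities of 1198 on HFD and 1655.7 on chow. Upk3b had 373.8 on HFD against 607.1 on chow and Lrrn4 158.7 against 263.3, and Upk1b differed by -0.24. Krt8 had 201.3 against 159 and was counted as higher, but its other probe sets differed by 0.15 and -0.24. Msln, named after its values were seen, was the other higher marker, with 101 on HFD against 73.9 on chow (0.45). Apoa1 and Apoa2 could not have been higher and Apoh depends on the probe set, so no shared direction with them is read. The part of mesothelial cells in the apolipoprotein values was not tested.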

How the data were processed

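Biotin-labelled cRNA from 10 µg of total RNA was hybridised to Affymetrix mouse arrays, as described per the labels. The authors deposited 1 linear intensity per probe set and array, and how probes were summarised and scaled is not given in the sources used here. Trimmed means (2% off each end) were 99.6 on both arrays, and the medians of log2 intensity, computed here from the deposited values, differed by -0.03. As this was under 0.1, no centring was applied. Gene symbols came from the platform's 2016 annotation, in which 34945 of 45037 had 1 symbol, 932 several and 9160 none. The 9 members matched RefSeq by gene ID.

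The floor was each array's 40th percentile. A gene took its measured probe set of highest mean log2 intensity before flooring. No test was possible with 1 array per diet, so genes were counted at 2-fold, and the number of arrays limits precision. Values under the floor on 1 array give bounds, written "at least". Alternatives changed the floor, the scale, the probe set rule or the fold. Text names all members, every list gene past 2-fold and up to 4 of the brightest others per list, with exceptions stated. Members and lists were chosen with earlier results of these data known. Counting was checked on simulated data with changes only in genes well above the floor, so the check does not cover genes near it. Work used Python 3.11.15, pandas 2.3.3 and statsmodels 0.14.6.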

Additional observations from a re-analysis of the deposited data

How the results depend on the processing

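Of the 3 apolipoproteins 2-fold or more lower on HFD, Apoa1, Apoa2 and Apoh were the same 3 under quantile normalization, reference gene centring and lowess centring. The count was 1 (Apoa2) with the mean of all measured probe sets and 1 (Apoa2) with the probe set of smallest difference, where Apoh reversed to 0.15. It was 2 (Apoa2 and Apoh) with the floor at the 60th percentile or the receptor limit, 4 (with Apom) with the floor at the 20th percentile, and 4 (with Apob) at 1.5-fold. It was 1 (Apoh) with plain probe sets only, which left 5 of the 8 measured genes and no value for Apoa1, Apoa2 or Apoe. The median of the measured members was -0.36 with the floor at the 60th percentile and -0.23 when each gene took its least different probe set. With the floor at the 20th percentile, 6 apolipoprotein probe sets were 2-fold or more lower. The share of all probe sets at that floor was not computed, and the count over all genes also rose, from 187 to 713. The 1 probe set 2-fold or more higher became 0 with the floor at the 60th percentile, 0 at the receptor limit and 0 with reference gene centring.

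Over all measured genes, 713 were lower and 598 higher with the floor at the 20th percentile, 65 and 88 at the 60th percentile, 72 and 101 at the receptor limit, and 890 and 808 at 1.5-fold. A value for a gene was counted as moved where it shifted by more than the probe SD of 0.32, which held for 14 of the 69 apolipoprotein values recomputed, besides the reversal of Apoh. No paired analysis was possible because each diet had 1 array. Weak signal limits Apoa1, Apoa2, Apob, Apoc3, Apoh and Apom, which lay near or inside background on at least 1 array, and the Apoa2 bound ran from -4.03 to -1.87 with the floor.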
